A study of Mus musculus with 8 samples.

Results

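Krüppel-like factor genes encode zinc-finger transcription factors, and the 9 members described here, Klf2, Klf3, Klf4, Klf6, Klf7, Klf9, Klf10, Klf11 and Klf13, were examined for open chromatin in alveolar macrophages (AMs), the resident macrophages of the airspaces. All peaks of 8 ATAC-seq libraries that touched a member's gene body or the 20 kb on either side of it (mm10, GENCODE M21) were taken, and peaks of different libraries that shared a base were merged into 1 region. This gave 84 regions of 82424 in the whole genome. At least 2 libraries had a peak in 77 of the 84, against 72711 genome-wide, and all 8 libraries had one in 59, against 47499. Regions are named by gene and numbered along the chromosome, so that Klf10 r5 is the fifth region of the Klf10 window.

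AMs had been sorted from bronchoalveolar lavage of adult mice of 2 genotypes, which share the floxed Rxra and Rxrb alleles. The 4 KO libraries (replicates 1_2, 1_3, 2 and 3) came from CD11cCre+ Rxrab fl/fl mice, in which Cre under the CD11c promoter deletes both retinoid X receptors (RXRs) in any cell that expresses CD11c, AMs included. The 4 WT libraries (replicates 1_2, 1_3, 3 and 4) came from CD11cCre- Rxrab fl/fl mice, which carry the same alleles without Cre. The labels do not say whether libraries 1_2 and 1_3 of a genotype derive from the same animal. The p-values therefore measure the spread between libraries, which may be partly technical. RXRs are nuclear receptors that bind DNA mostly as partners of other receptors, such as PPARγ and LXR.

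Krüppel-like factors share a DNA-binding domain at the C-terminal end that recognises GC boxes and CACCC boxes, and they differ in the N-terminal part that recruits coactivators or corepressors. By that part they fall into a group that mostly activates (Klf2, Klf4, Klf6 and Klf7 here), a group that recruits the corepressor CtBP (Klf3) and a group that recruits the corepressor Sin3A (Klf9, Klf10, Klf11 and Klf13). In the myeloid lineage Klf4 is known for its part in monocyte differentiation, Klf2 for restraining inflammatory activation, Klf6 for promoting it, and Klf10 as an early target of TGF-β.

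Each library had its own peak list, called by the authors with a q cutoff of 0.05. The lists held 60363 to 65009 peaks in KO and 61240 to 72484 in WT. The background, a measure of depth, was 1.12 to 1.86 tags (cut ends extended to 200 bp) per 200 bp in KO and 1.42 to 2.26 in WT, and the part of this difference in the results was not tested. Summit tags were recovered for every peak from its fold enrichment and −log10 p-value. To compare libraries, a summit's tags were divided by the median of that library's 47499 shared regions, which was 57 to 91 tags, and this ratio is called the level. In cells in bulk, fewer cells with an open site and a less open site in each cell cannot be told apart. KO replicates 1_2 and 1_3 differed at the shared summits by no more than sampling noise (chi-square per degree of freedom 0.98), and so did KO replicates 2 and 3 (1.01), whereas the other same-genotype pairs gave 1.10 to 1.99. Their lists differed in length (60363 and 65009 peaks, 61078 and 63600 peaks), which does not show that they are independent. The 4 were kept as separate samples, as titled. Each call in the windows of the 9 genes is also given with each of these pairs averaged and counted as 1 sample, which leaves 2 KO samples against 4 WT. As a check of the labels, an intronic region of Rxra (chr2:27744546-27744950) had 38, 46, 38 and 42 tags in the WT libraries and no peak in any KO library, while the Rxrb promoter region (chr17:34031472-34032510) had a peak in all 8. Of 8 AM marker promoters, 7 were open in all libraries and Chil3 in none. Of 10 markers of other cell types, 7 were also open in all (levels 0.22 to 2.44), and Cd3e, Sftpc and Ly6g in none, so a peak at a promoter does not by itself identify the cell.

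Sequences of the 9 regions that passed the test between genotypes are shown first, with the strongest, second strongest and weakest of the 9 promoters. Each region is given as the 201 bases centred on the summit of its strongest peak, plus strand, and each promoter as the 200 bases before the transcription start site (TSS) and the first 30 bases from it, on the gene's strand, all from the GRCm38 reference (mm10). Capitals mark matches on either strand to the GC box GGGCGG, the CACCC box CCNCACCC, the PU.1 pattern GAGGAAGT, the AP-1 pattern TGANTCA, the C/EBP pattern TTNCGNAA, the RUNX pattern TGTGGTT, the E-box CACGTG, the CRE TGACGTCA, and DR1 (half-sites AGGTCA spaced by 1 base, at most 2 mismatches in 12 bases). A match is a description of letters and not evidence of binding.
Klf13 promoter, chr7:63938886-63939115, minus strand, 3 GC boxes: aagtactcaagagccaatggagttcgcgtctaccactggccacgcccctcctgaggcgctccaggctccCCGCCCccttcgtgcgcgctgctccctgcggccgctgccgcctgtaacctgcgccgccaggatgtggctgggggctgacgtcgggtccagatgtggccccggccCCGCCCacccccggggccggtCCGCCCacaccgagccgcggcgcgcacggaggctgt
Klf10 promoter, chr15:38300677-38300906, minus strand, 2 GC boxes: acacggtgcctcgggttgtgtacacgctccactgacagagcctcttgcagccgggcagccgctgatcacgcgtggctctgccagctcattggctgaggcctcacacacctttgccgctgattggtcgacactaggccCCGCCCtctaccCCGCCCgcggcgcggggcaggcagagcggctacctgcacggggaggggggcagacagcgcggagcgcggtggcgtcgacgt
Klf4 promoter, chr4:55532437-55532666, minus strand, 2 GC boxes and 1 E-box: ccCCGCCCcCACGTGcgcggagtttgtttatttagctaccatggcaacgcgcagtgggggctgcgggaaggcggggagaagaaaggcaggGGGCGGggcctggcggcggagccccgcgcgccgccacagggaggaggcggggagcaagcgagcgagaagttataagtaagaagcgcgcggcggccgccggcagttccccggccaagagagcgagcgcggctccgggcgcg
Klf10 r5, chr15:38290237-38290437, downstream of Klf10, lower in KO, no match: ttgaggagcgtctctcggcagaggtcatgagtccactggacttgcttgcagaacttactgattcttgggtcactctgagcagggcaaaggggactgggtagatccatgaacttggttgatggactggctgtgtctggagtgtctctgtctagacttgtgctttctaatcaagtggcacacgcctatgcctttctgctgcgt
Klf10 r1, chr15:38278380-38278580, downstream of Klf10, lower in KO, 1 AP-1 match: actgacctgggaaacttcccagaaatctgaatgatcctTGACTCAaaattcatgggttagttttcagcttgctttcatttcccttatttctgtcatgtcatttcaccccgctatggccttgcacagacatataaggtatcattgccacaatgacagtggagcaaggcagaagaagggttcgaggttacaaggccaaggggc
Klf7 r6, chr1:64080238-64080438, Klf7 intron, lower in KO, no match: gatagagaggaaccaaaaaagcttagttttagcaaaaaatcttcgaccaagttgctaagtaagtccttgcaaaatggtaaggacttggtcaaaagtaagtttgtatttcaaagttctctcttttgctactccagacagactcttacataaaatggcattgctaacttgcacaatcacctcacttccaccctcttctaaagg
Klf7 r8, chr1:64088848-64089048, Klf7 intron, lower in KO, 1 PU.1 match: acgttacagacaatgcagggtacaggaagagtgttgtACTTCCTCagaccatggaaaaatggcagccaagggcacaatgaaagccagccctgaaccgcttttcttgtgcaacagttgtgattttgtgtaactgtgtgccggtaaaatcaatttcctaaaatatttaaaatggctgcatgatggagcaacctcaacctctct
Klf13 r9, chr7:63914166-63914366, Klf13 intron, lower in KO, no match: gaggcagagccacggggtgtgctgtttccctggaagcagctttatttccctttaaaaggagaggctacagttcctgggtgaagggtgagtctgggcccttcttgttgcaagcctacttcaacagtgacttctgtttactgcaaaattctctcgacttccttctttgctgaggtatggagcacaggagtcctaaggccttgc
Klf13 r2, chr7:63893372-63893572, Klf13 intron, lower in KO, no match: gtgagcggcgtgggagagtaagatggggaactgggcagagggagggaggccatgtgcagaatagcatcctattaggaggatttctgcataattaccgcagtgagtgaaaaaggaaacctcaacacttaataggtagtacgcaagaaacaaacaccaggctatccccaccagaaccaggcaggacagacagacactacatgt
Klf13 r5, chr7:63905307-63905507, Klf13 intron, higher in KO, 1 AP-1 match: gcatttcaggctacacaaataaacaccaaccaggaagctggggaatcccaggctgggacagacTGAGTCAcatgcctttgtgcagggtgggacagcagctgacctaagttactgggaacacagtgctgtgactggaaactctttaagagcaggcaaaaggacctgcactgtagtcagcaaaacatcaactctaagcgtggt
Klf6 r1, chr13:5845705-5845905, upstream of Klf6, higher in KO, 1 AP-1 match: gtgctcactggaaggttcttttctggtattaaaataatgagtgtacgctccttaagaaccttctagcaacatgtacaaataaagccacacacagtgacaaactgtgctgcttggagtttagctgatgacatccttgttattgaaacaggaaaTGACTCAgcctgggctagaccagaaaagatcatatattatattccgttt
Klf3 r4, chr5:64806251-64806451, Klf3 intron, higher in KO, 1 CACCC box: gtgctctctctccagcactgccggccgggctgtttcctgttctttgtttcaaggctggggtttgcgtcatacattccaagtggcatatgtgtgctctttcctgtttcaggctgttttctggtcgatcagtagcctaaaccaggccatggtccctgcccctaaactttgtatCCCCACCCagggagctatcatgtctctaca

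The promoter of a gene was taken as the strongest region within 1 kb of any of its annotated TSSs, so that a gene with several TSSs can hold further regions at a TSS. The promoters of all 9 genes were open in all 8 libraries, and at every gene but Klf11, which had no shared region away from its own TSSs, the promoter was also stronger than all shared regions farther than 1 kb from them. Their levels ranged from 8.86 times the median shared region at Klf13 to 2.64 times at Klf4 (mean of 8 libraries). The order was Klf13 (8.86), Klf10 (8.19), Klf7 (6.44), Klf6 (5.59), Klf2 (5.39), Klf11 (5.23), Klf3 (4.93), Klf9 (4.16) and Klf4 (2.64). Neighbours in this order overlapped in their range over the 8 libraries, except Klf9 (3.75 to 4.75) and Klf4 (2.01 to 3.05), whose ranges did not. Within a library, Klf13 exceeded Klf10, Klf10 exceeded Klf7 and Klf7 exceeded Klf6 in 8 of 8 libraries, whereas Klf6 exceeded Klf2 in 5. Among the 11807 protein-coding genes with a promoter region in all 8 libraries, whose median level was 1.99, the 9 promoters lay between percentile 64.0 (Klf4) and percentile 99.5 (Klf13). Levels describe how open a promoter was and are not a measure of transcription.

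The Klf13 promoter (chr7:63938432-63939759) had 595, 705, 622 and 591 tags in WT and 629, 571, 528 and 560 in KO, with libraries always given in the order of their names above. The Klf10 promoter (chr15:38300570-38301471) had 553, 678, 595 and 565 tags in WT and 597, 570, 462 and 440 in KO. The Klf4 promoter (chr4:55532176-55533189) had 141, 258, 204 and 144 tags in WT and 188, 169, 183 and 157 in KO. Once divided by the library's median shared region, WT and KO overlapped at all 3. Levels were 8.63 ± 0.88 and 9.10 ± 0.57 (SD, n = 4 each) at Klf13, 8.20 ± 0.85 and 8.18 ± 0.55 at Klf10, and 2.50 ± 0.38 and 2.77 ± 0.22 at Klf4.

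**Figure D1:**
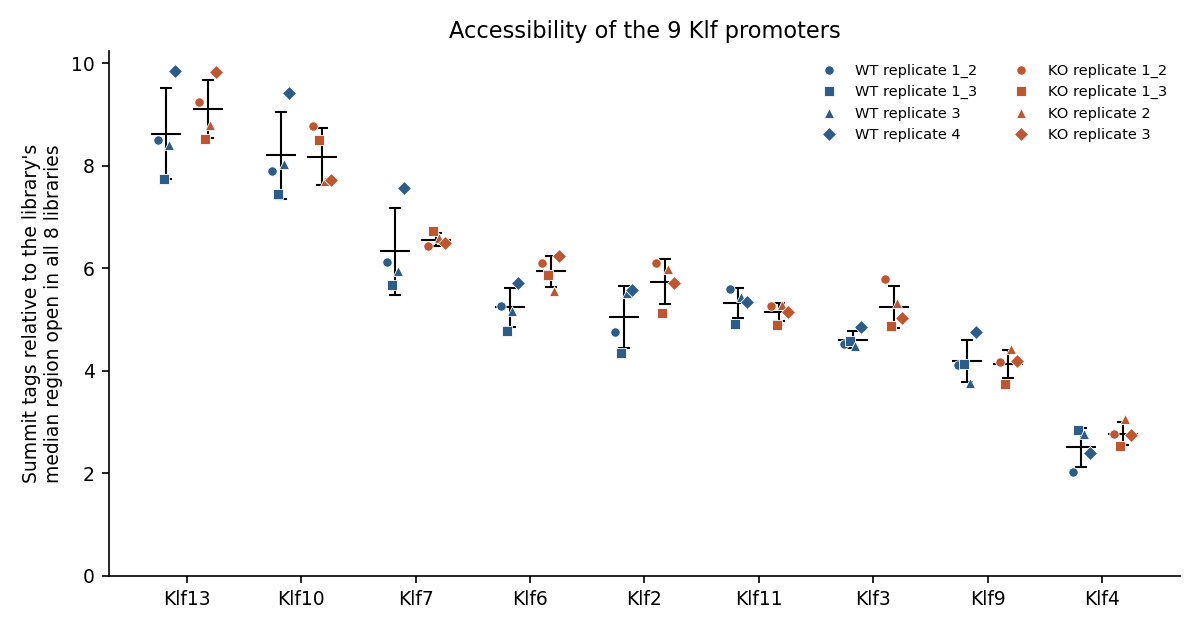
Level of the promoter region of each Klf gene (vertical axis: tags at the summit divided by the library's median over the regions open in all 8 libraries) in WT (blue) and KO (orange) libraries, 1 point per library with mean and SD (n = 4). Mean levels fall from 8.86 at Klf13 to 2.64 at Klf4, and the genotypes overlap at each gene but Klf3, where KO lies at 4.87 to 5.79 and WT at 4.49 to 4.85.

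No promoter passed the test between genotypes. The test was limma on log2(tags + 0.5) after centring each library on its median, fitted to all 47499 shared regions, with Benjamini-Hochberg adjusted p under 0.05 as the threshold. The log2 differences (KO minus WT) of the 9 promoters lay between −0.05 (Klf11) and 0.19 (Klf2), with standard errors of 0.07 to 0.10 and adjusted p of 0.109 to 0.987. Their 95% intervals together spanned −0.20 to 0.35 on this scale. The Klf3 promoter was the one whose levels did not overlap, at 4.49 to 4.85 in WT and 4.87 to 5.79 in KO (log2 difference 0.19 ± 0.08 SE, adjusted p = 0.111). The median difference of the 9 promoters was 0.08, beside 0.09 over the 14944 tested regions within 1 kb of any TSS. The 6 other shared regions within 1 kb of an own TSS (Klf3 r8, Klf6 r4, Klf10 r7, Klf11 r3, Klf13 r12 and Klf13 r15) did not pass either, with log2 differences of −0.15 to 0.15 and adjusted p of 0.311 to 0.910. Of the 14944 regions within 1 kb of any TSS, 3.19% were lower and 6.59% higher in KO. At such shares, the lack of a call among these few regions does not set them apart. In 144 refits of promoters under 16 alternative settings, 6 passed the threshold, all higher in KO, at the Klf2, Klf3, Klf6 and Klf13 promoters.

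The calls in the Klf windows lay at other regions, at shares not far from those of all tested regions. Of the 59 regions tested, 6 were lower in KO (10.2%) and 3 were higher (5.08%), where 7.03% of all 47499 regions were lower and 5.81% were higher. The 9 regions lay at Klf10, Klf7, Klf13, Klf6 and Klf3, and none was within 1 kb of an own TSS. The share lower among the 44 Klf regions farther than 1 kb from an own TSS was 13.6% and the share higher 6.82%, beside 8.79% and 5.45% of all tested regions farther than 1 kb from any TSS. The median log2 difference of the 59 was −0.02, beside 0.04 over all tested regions. Of the 59, 33 lay below 0 and 26 above, beside 20119 and 27380 of all 47499. Counts of signs at single genes below are descriptions and were not tested. With the 2 KO pairs each counted as 1 sample, 4 of the 6 regions stayed lower (6.78% of the 59) and none of the 3 stayed higher (0%), where 4.22% and 2.12% of all regions passed. At Klf2, Klf4, Klf9 and Klf11 no region passed the test, and the lowest adjusted p was 0.0946. Levels of the 2 genotypes did not overlap at 9 Klf regions with KO below WT (15.3% of the 59) and at 4 with KO above (6.78%). Of all tested regions, 7.92% and 8.25% showed these patterns. Beside the 9 regions that passed the test, the Klf regions without overlap were Klf3 r9, Klf9 r1 and Klf9 r3 below and the Klf3 promoter above.

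Klf10, the TGF-β-inducible member, held the region with the largest difference among the Klf regions. Klf10 r5 (chr15:38290101-38290534) lies in intergenic sequence beyond the 3′ end of the gene, 10.4 kb downstream of its TSS. It had 141, 161, 148 and 110 tags in the WT libraries and 61, 71, 74 and 45 in the KO libraries, so that every KO value was below every WT value. Its level was 1.90 ± 0.12 in WT and 0.99 ± 0.19 in KO (SD, n = 4 each), a log2 difference of −0.95 ± 0.12 (SE) or 0.52 times the WT level (limma, adjusted p = 1.28e-07). It was lower under all 16 alternative settings, with log2 differences of −1.08 to −0.85 and adjusted p of at most 6.2e-05. With the KO pairs counted once, the adjusted p was 7.58e-06. The 201 bases around its summit, printed above, held none of the 9 patterns.

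A second region farther downstream moved the same way. Klf10 r1 (chr15:38278000-38278678), 22.2 kb from the TSS, was the weakest of the 59 regions, with 22, 45, 34 and 31 tags in WT and 17, 16, 15 and 17 in KO. The levels of the groups did not overlap, although WT replicate 1_2 (0.31) came close to the highest KO library (0.30). The log2 difference was −0.74 ± 0.20 (adjusted p = 0.00827), it passed under all 16 alternative settings, and the adjusted p was 0.0472 with the KO pairs counted once. Between these regions, Klf10 r4 (chr15:38288944-38289385), 1 of the 2 Klf regions with a DR1 match, had levels of 2.38 ± 0.24 in WT and 2.06 ± 0.21 in KO (log2 difference −0.21 ± 0.10, adjusted p = 0.167), and Klf10 r3 gave −0.06 ± 0.14 (adjusted p = 0.821). Klf10 r7, the second strongest region of the gene with a level of 5.78, lies in an intron 0.35 kb from another Klf10 TSS and gave −0.06 ± 0.08 (adjusted p = 0.696). All 6 tested Klf10 regions had a log2 difference below 0, with a median of −0.14, and 2 of the 6 passed the test. Over all tested regions, 20119 of 47499 lay below 0.

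The 2 Klf10 regions without a peak in every library had peaks in fewer KO than WT libraries. Klf10 r6 (chr15:38292087-38292364), in an intron of the gene, had 38, 44, 56 and 47 tags in the 4 WT libraries and a peak in 1 KO library, replicate 1_3, with 34 tags. It was the only Klf region found in 4 libraries of one genotype and at most 1 of the other, a pattern that 2.03% of the 72711 regions showed towards WT and 0.725% towards KO. Without KO replicate 1_3 it became a region with peaks in WT alone. Where a peak was called, the local background was 12.2 to 16.8 tags in WT and 9.68 in KO replicate 1_3. No background is known for the KO libraries that lack the peak, so whether it played a part there was not tested. The lack of a called peak does not show that the site was closed. Klf10 r2 had a peak in 4 WT libraries (29 to 39 tags) and 2 KO libraries (29 and 23 tags).

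Klf7, a member of the activating group and the closest relative of Klf6, spans 92.8 kb and had 2 lower regions. Klf7 r6 (chr1:64080042-64080588) lies in introns of both Klf7 and the overlapping noncoding gene Gm13748, 41.9 kb downstream of the Klf7 TSS and 1.68 kb from a TSS of Gm13748. It had 82, 105, 99 and 77 tags in WT and 47, 47, 47 and 39 in KO, with no overlap between the genotypes. The level was 1.24 ± 0.09 in WT and 0.72 ± 0.05 in KO, a log2 difference of −0.78 ± 0.13 (adjusted p = 3.08e-05), and it passed under all 16 alternatives, with an adjusted p of 0.000815 for KO pairs counted once. Klf7 r8 (chr1:64088704-64089167), in the same introns and 33.3 kb from the TSS, had 51, 71, 57 and 51 tags in WT and 36, 27, 36 and 32 in KO. Its levels again did not overlap, and the log2 difference was −0.59 ± 0.16 (adjusted p = 0.0111, and 0.0444 with the KO pairs counted once). Leaving out KO replicate 1_3, the lowest KO library there, gave −0.47 and an adjusted p of 0.0614. Of the 5 tested Klf7 regions, 4 had a difference below 0, beside 20119 of all 47499 tested regions. The promoter (0.06 ± 0.08, adjusted p = 0.683) was the one above 0. Klf7 r5, next to r6, gave −0.31 ± 0.14 (adjusted p = 0.151) and the distant intronic Klf7 r3 gave −0.14 ± 0.10 (adjusted p = 0.383).

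**Figure D2:**
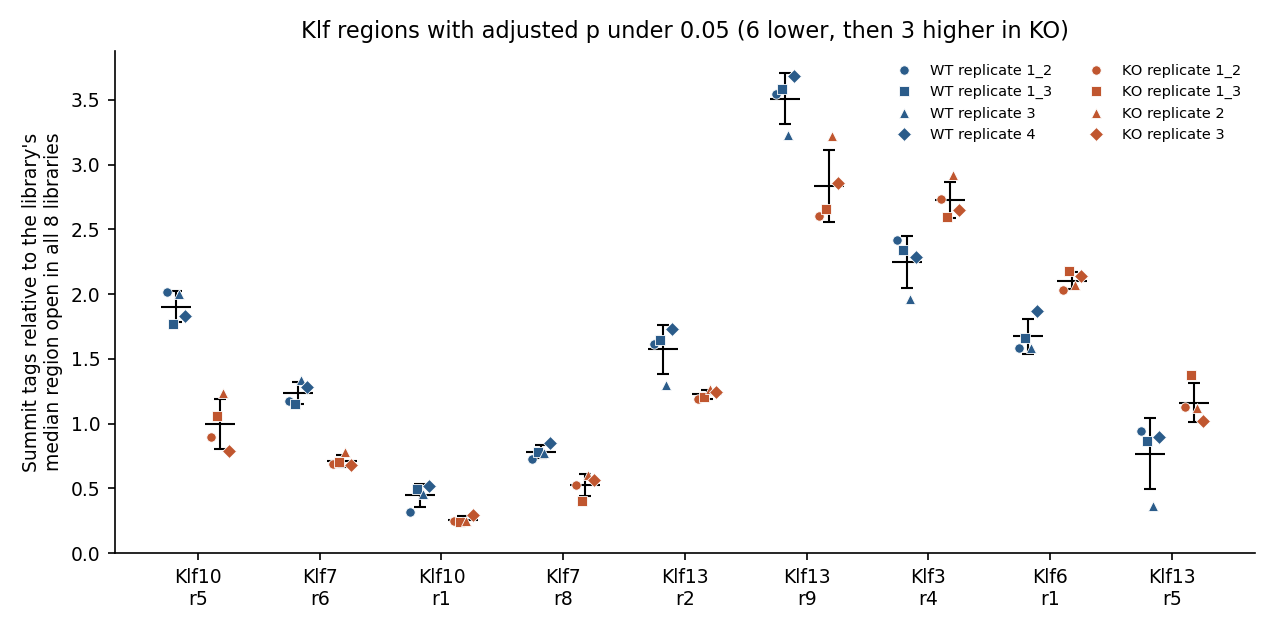
Level (vertical axis: summit tags relative to the library's median shared region) of the 9 Klf regions with an adjusted p under 0.05, in WT (blue) and KO (orange) libraries, with mean and SD (n = 4), ordered from the most lowered to the most raised. At Klf10 r5 the WT libraries lie between 1.77 and 2.01 and the KO libraries between 0.79 and 1.23, and at Klf13 r5 WT replicate 3 lies at 0.37, below all other libraries.

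Klf13, a Sin3A-recruiting member known for activating the chemokine gene Ccl5 in T cells, had the most regions, 17, of which 15 were tested. Klf13 r12, in an intron 13.4 kb into the gene and 0.62 kb from another Klf13 TSS, reached a level of 6.30, close to that of the Klf7 promoter, and did not pass the test (log2 difference −0.02 ± 0.07, adjusted p = 0.910). Klf13 r9 (chr7:63914074-63914450) had 248, 326, 239 and 221 tags in WT and 177, 178, 193 and 163 in KO. The groups touched but did not overlap, the lowest WT level being 3.23 and the highest KO level 3.22, and the log2 difference was −0.31 ± 0.09 (adjusted p = 0.0115). Klf13 r2 (chr7:63893294-63893655) had 113, 150, 96 and 104 tags in WT and 81, 81, 76 and 71 in KO, a log2 difference of −0.35 ± 0.12 (adjusted p = 0.0357). Of these 2 calls, r9 passed under 12 of the 16 alternatives and r2 under 4, and with the KO pairs counted once the adjusted p was 0.0697 and 0.136.

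The call in the other direction at Klf13 rested on 1 library. Klf13 r5 (chr7:63905159-63905584), also intronic, had 66, 79, 27 and 54 tags in WT and 77, 92, 67 and 58 in KO. The level was 0.77 ± 0.27 in WT and 1.16 ± 0.15 in KO, a log2 difference of 0.67 ± 0.18 (adjusted p = 0.00784). WT replicate 3 had a level of 0.37 where the other WT libraries had 0.87 to 0.94, and without it the log2 difference was 0.35 and the adjusted p 0.121. The adjusted p was 0.0965 with the KO pairs counted once.

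At Klf6 and Klf3, 1 region each was higher in KO. Klf6 r1 (chr13:5845129-5846056), in intergenic sequence 15.7 kb upstream of Klf6, had levels of 1.67 ± 0.13 in WT and 2.10 ± 0.07 in KO, from 111, 151, 117 and 112 tags in WT and 138, 146, 124 and 122 in KO. The levels did not overlap, and the log2 difference was 0.33 ± 0.10 (adjusted p = 0.0194). Klf3 r4 (chr5:64806178-64806546), in an intron 2.96 kb from the TSS, had 169, 213, 145 and 137 tags in WT and 186, 174, 175 and 151 in KO, with a log2 difference of 0.28 ± 0.09 (adjusted p = 0.0372). These calls were lost with the KO pairs counted once (adjusted p = 0.101 for Klf6 r1 and 0.155 for Klf3 r4) and without WT replicate 3 (0.0681 and 0.185). Scaling by total tag depth in place of the median gave 0.476 and 0.618. The count of Klf regions higher in KO was 3 as fitted, 1 under total tag depth, and 0 without WT replicate 3. Over all tested regions the same change of scaling moved the calls from 54.7% lower (3337 lower, 2759 higher) to 77.6% lower (1988 lower, 575 higher).

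The remaining members showed no region past the test. Klf2, a factor of endothelial and lymphocyte quiescence, sat in a short gene with 5 regions, all open in every library. They included a strong region 3.53 kb downstream of the TSS, Klf2 r5, with a level of 3.73 in WT and 4.17 in KO (log2 difference 0.17 ± 0.08, adjusted p = 0.198), and 2 regions within 2 kb upstream of the TSS, r2 and r3, with levels of 1.51 and 2.39. Klf4, with the weakest promoter, had 4 shared regions whose log2 differences were all above 0, from 0.12 to 0.16 (adjusted p of 0.314 to 0.607). Over all 47499 tested regions, 27380 lay above 0 and 20119 below. Klf9, a glucocorticoid-inducible member, had a difference below 0 at 4 of 5 regions, the lowest being Klf9 r1, 15.8 kb upstream, with −0.49 ± 0.20 (adjusted p = 0.0946). Klf11, a paralogue of Klf10, had 2 shared regions, its promoter and Klf11 r3 in an intron 0.69 kb from the TSS and 0.07 kb from another, at −0.05 and −0.06 (adjusted p of 0.734 and 0.712). The 95% interval of Klf9 r1 ran from −0.89 to −0.09 and so reached changes as large as some that passed, while the intervals of the 2 Klf11 regions lay between −0.23 and 0.11.

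**Figure D3:**
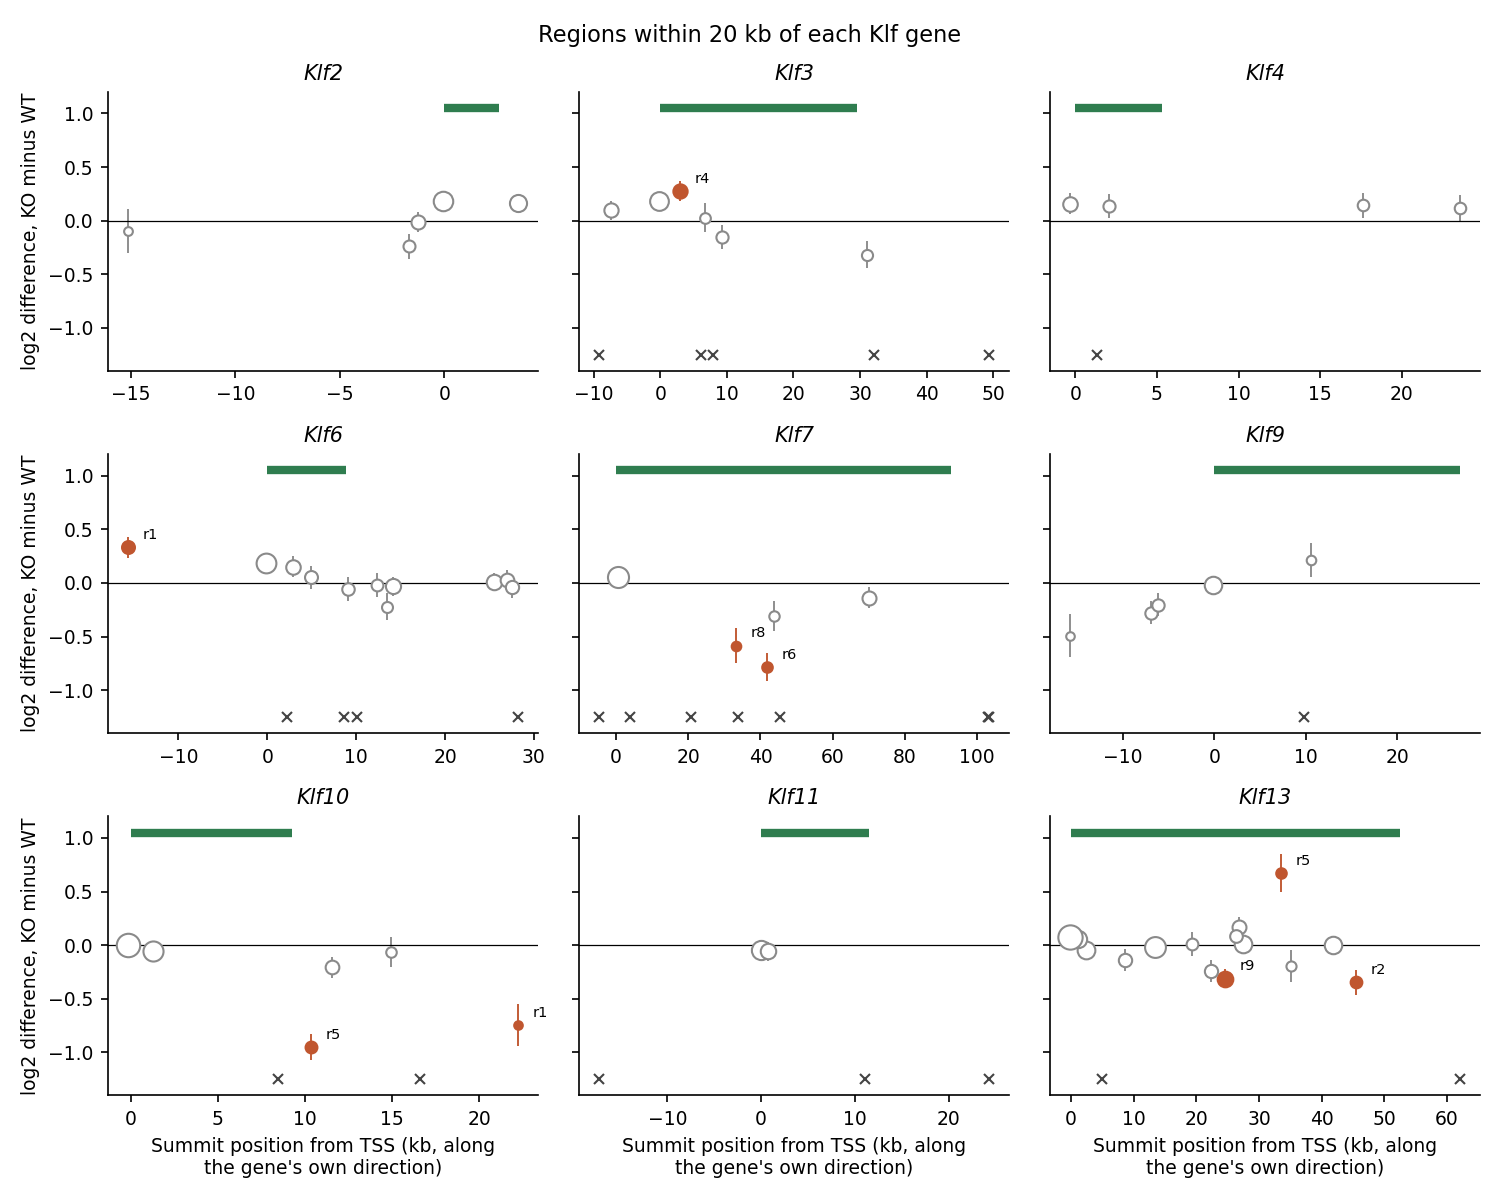
Each panel is 1 Klf gene, with the distance of each region's summit from the TSS in kb along the gene's direction on the horizontal axis (the gene body in green) and the log2 difference, KO minus WT, with its SE on the vertical axis; circle area grows with the level, filled circles have an adjusted p under 0.05, and crosses at the bottom mark regions without a peak in all 8 libraries. The promoters, close to 0 kb, lie near a difference of 0, while Klf10 r5 lies at −0.95 and Klf7 r6 at −0.78.

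Presence of a peak, the coarser measure, separated the genotypes at no Klf region. No region of the 77 had a peak in all WT and no KO libraries, and none in all KO and no WT libraries, where 0.82% and 0.285% of the 72711 regions did. Libraries had 72, 78, 72 and 69 of the 84 regions in WT (72.8 ± 3.8, SD, n = 4) and 68, 68, 68 and 71 in KO (68.8 ± 1.5), so the groups overlapped. Of the 77 regions found in at least 2 libraries, 59 (76.6%) were found in all 8, beside 65.3% genome-wide. The other 18 were found in more WT libraries in 11 cases, in more KO libraries in 5 and in equal numbers in 2. This split was not counted over the genome, where peaks in 1 genotype alone also leaned to WT (0.82% against 0.285%). It is therefore not read as a trait of these genes. The 7 regions found in a single library came from WT in 6 cases, 4 of them from WT replicate 1_3, the deepest library, and all 4 at Klf7.

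**Figure D4:**
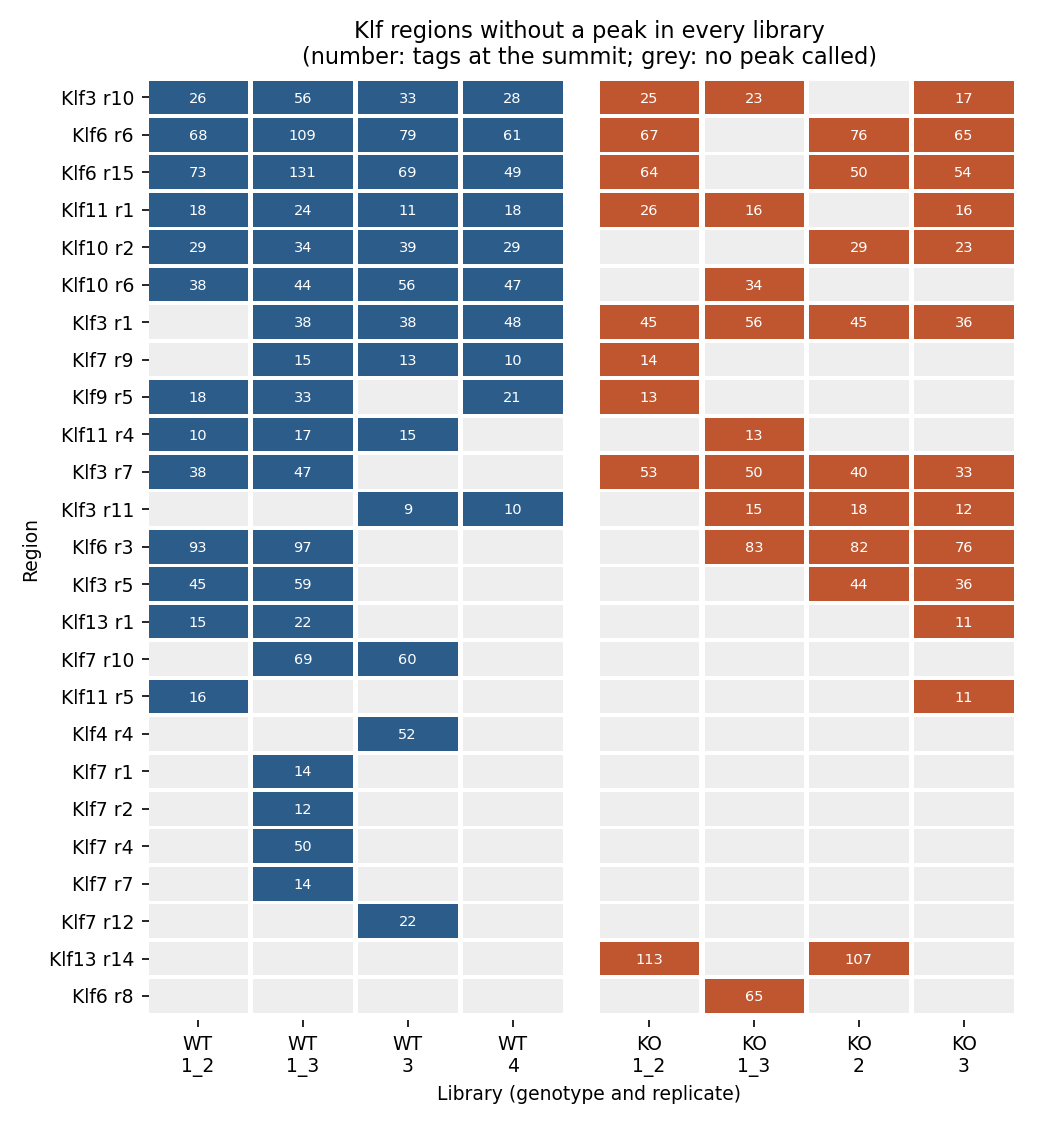
Presence of a peak in each library (columns: 4 WT, then 4 KO) for the 25 Klf regions without a peak in all 8 (vertical axis), with the tags at the summit printed where a peak was called and grey where none was. Klf10 r6 has 4 WT libraries and 1 KO library, and 4 of the single-library regions belong to WT replicate 1_3.

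Some of these partial regions had a local background far above that of the whole library, where a peak was called. Klf6 r3, in an intron, had peaks of 93 (replicate 1_2) and 97 tags (replicate 1_3) in WT and of 83, 82 and 76 in 3 KO libraries, and Klf13 r14 had 113 and 107 tags in 2 KO libraries and no called peak elsewhere. At Klf6 r3 the local background was 33.5 and 40.5 tags in the 2 WT libraries and 28.9 to 34.1 in the 3 KO libraries. Klf3 r7 was found in 4 KO and 2 WT libraries (53, 50, 40 and 33 tags in KO, 38 and 47 in WT replicates 1_2 and 1_3). It became a region of KO alone when every list was cut to the length of the shortest. Its local background was 13.2 and 17.1 tags in these 2 WT libraries and 10.4 to 13.7 in KO. Libraries without a peak have no background value, so its part in the missing peaks was not tested. There too a missing peak does not mean a closed site.

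The composition of the regions followed their position. The median GC content within 100 bp of the summit was 64.4% for the 16 Klf regions within 1 kb of an own TSS and 50.2% for the 61 others, beside 61.2% and 48.8% for all regions near to and far from a TSS. The GC box was found in 9 of the 16 (56.2%) and in 7 of the 61 (11.5%), beside 47.5% and 7.29% of all regions near to and far from any TSS. The classes are not the same, since the 61 include regions near a TSS of another gene. An example is Klf13 r3, with a GC box and 0.55 kb from a TSS of Gm27252. The CACCC box, the other sequence that the encoded factors recognise, was found in 2 of the 16 (12.5%) and in 12 of the 61 (19.7%), beside 13.9% and 10.1%. The AP-1 pattern was found in 12 of 77 regions (15.6%, and 11.9% of all regions), PU.1 in 6 (7.79%, and 10.7%), RUNX in 5 (6.49%, and 8.98%), the E-box in 2 (2.6%, and 5.35%), C/EBP in 1 (1.3%, and 2.27%) and CRE in 0 (0.952% of all). DR1, the spacing bound by RXR with PPARγ, was matched in 2 Klf regions (2.6%, and 4.14% of all), Klf10 r4 and Klf6 r11, of which neither passed the test (Klf6 r11, −0.03 ± 0.09, adjusted p = 0.864). None of the 6 lower or 3 higher regions had a DR1 match in this window, which says only that these letters are not there.

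The other members of the family and the related Sp factors, which bind GC boxes, served for comparison (Klf1, Klf5, Klf8, Klf12, Klf14 to Klf17 and Sp1 to Sp9, 17 genes). Their windows held 89 regions, of which 78 were found in at least 2 libraries and 42 in all 8 (53.85% of 78). Promoters were open in all 8 libraries in 8 of the 17: Sp1 (level 8.23), Sp4 (7.47), Sp2 (7.32), Klf5 (4.47), Sp3 (4.01), Klf16 (2.52), Klf8 (1.09) and Klf1 (1.06). Klf12, Klf17 and Sp7 had no promoter peak in any library. Of the 42 tested regions 4 were lower in KO and 3 higher (9.52% and 7.14%), with a median log2 difference of 0.09, and the largest was a region of the Sp4 window away from any TSS (chr12:118268245-118268893, −0.86 ± 0.12, adjusted p = 8.12e-07, and 0.000201 with the KO pairs counted once). Of the 7 calls, 4 lay within 1 kb of a TSS of some gene, and 2 of these at an own TSS: the Sp3 region chr2:72970292-72970746 was lower (−0.46 ± 0.12, adjusted p = 0.00894) and the Klf16 region chr10:80576914-80578115 higher (0.30 ± 0.10, adjusted p = 0.0347). With the KO pairs counted once, 3 of the 4 lower calls and 0 of the 3 higher calls remained, with adjusted p of 0.0472 for the Sp3 region and 0.168 for the Klf16 region. Of the 78 regions, 2 were found in all WT and no KO libraries, a pattern that 0.82% of the 72711 regions genome-wide showed. They lay in a coding exon of Sp5 (20 to 25 tags) and in an intron of Sp9 (12 to 19 tags).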

How the data were processed

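ATAC-seq was done on AMs sorted from bronchoalveolar lavage of WT and KO mice, 4 libraries each, grouped by sample title. Per the study's methods, the authors used Cutadapt for trimming, Bowtie2 for alignment to mm10 and Picard for duplicates, and called peaks per library with MACS3 (200 bp extension, q 0.05). Each deposited list gives the position, a display score (not used), the fold ratio of the summit to its background, −log10 p-value, −log10 q-value and summit offset of a peak; no counts are listed. A deeper library reaches the q threshold at a lower enrichment.

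Tags at a summit were the whole number that, with the background implied by the deposited fold, gives back the deposited −log10 p-value under a Poisson model; 100% of peaks were recovered within a relative error of 1e-05. A region took its strongest summit per library. Both statistics were made within 1 list, so comparing tags across lists goes beyond their purpose. Regions with a peak in all 8 libraries entered limma 3.58.1 (R 4.3.3; trended variance; log2(tags + 0.5), median centred; genotype as the only term; adjusted over 47499 regions). The authors' own test used read counts with edgeR and was not fitted here. The limma fit took 59 of the 84 Klf regions, and the other 25 were described by presence alone. The fit and the tag recovery were tested on simulated data. A promoter was the strongest region that reached within 1 kb of any annotated TSS of the gene; the class of regions within 1 kb of an own TSS, measured from the summit, also takes weaker regions at other TSSs. From the marker list, 1 gene is not reported here.

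The 9 genes, the gene lists, the patterns and the alternatives were chosen with earlier results of these data known, so no count here is independent evidence. The naming rule took, for each gene, the promoter, the strongest region, regions in all libraries of one genotype and none of the other or nearly so (4 against 1, or 3 against 0), and regions past the test. Other regions were chosen after their values were seen. Alternatives were total depth and quantile scaling, a pseudocount of 5, summed summits, a mean of at least 20 tags, a block for replicate numbers, replicates 1_2 and 1_3 as 1 sample, windows of 5 and 50 kb, an overlap of at least 100 bases, a −log10 q of at least 5, lists of equal length and leaving out each library. Counting each similar KO pair once was added after seeing the data, as was equal list length for the numbers of regions.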

Additional observations from a re-analysis of the deposited data

Results flagged for a closer look

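Values of the 4 libraries of each genotype were screened for a single library far from its group, over 19 measures (the number of Klf peaks, the 9 promoters and the 9 regions past the test), that is 38 groups of 4. Chance flags about 1 in 20 such groups, and 2 of the 38 were flagged, near that rate. At Klf13 r5, WT replicate 3 had a level of 0.365 (27 tags), where the other 3 WT libraries lay between 0.868 and 0.943, and the call for that region rests on it. KO replicate 3 had a peak in 71 of the Klf regions, where the other 3 KO libraries had 68 each. With the other 3 tied, any difference would have been flagged.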

How the results depend on the processing

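The lists hold no read counts, a missing peak means only that the caller's threshold was not reached, and the weakest listed summit had 6 to 9 tags depending on the library. Of 119 alternative values of the 8 counts reported, 105 stayed within 1.5 times the value reported. The 105 include values that stayed at 0, for the counts of regions with peaks in WT alone or in KO alone. The log2 differences of Klf10 r5, Klf10 r1 and Klf7 r6 passed under all 16 alternatives, Klf7 r8 under 15, Klf13 r5 under 13, Klf13 r9 under 12, Klf6 r1 under 9, Klf3 r4 under 7 and Klf13 r2 under 4, and none of them changed sign.

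Klf regions higher in KO (3 as reported) were 1 under total tag depth, 1 with summed summits and 0 with the KO pairs counted once, and 0 to 5 when 1 library was left out (0 without WT replicate 3, 1 without KO replicate 3, 5 without WT replicate 4). Klf regions lower in KO (6) were 4 to 7 when 1 library was left out. Over all tested regions (3337 lower, 2759 higher), total tag depth gave 1988 and 575, the KO pairs counted once 2005 and 1006, and leaving out 1 library 2624 to 3182 and 1823 to 3269. The split moved from 54.7% lower to 77.6% under total tag depth and to 66.6% with the KO pairs counted once. In the last setting the fit has fewer samples, and the other causes were not tested. With lists of equal length 1 region (Klf3 r7) had peaks in all KO and no WT libraries. Regions with peaks in all WT and no KO libraries numbered 0 to 1 when 1 library was left out (1 without KO replicate 1_3, Klf10 r6), and regions with peaks in KO alone 0. The total of Klf regions ran from 82 to 85 and the number in every library from 59 to 61 when 1 library was left out.

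The labels do not say whether a shared replicate number marks paired samples. Deviations from the group mean correlated at 0.0555, 0.116 and 0.0368 across regions for the shared numbers 1_2, 1_3 and 3. KO and WT libraries with different numbers gave −0.0673 to 0.0322, so the shared numbers ranked highest, though all values were small. What the numbers stand for was not tested. With the replicate block, 5 Klf regions were lower and 6 higher, the higher ones now including the Klf2, Klf3, Klf6 and Klf13 promoters, and 3283 and 3600 of all regions. KO replicate 2 and WT replicate 4 have no partner, so in that fit the difference rests on the shared numbers. Leaving out WT replicate 4, without a block, gave 5 higher Klf regions, the Klf2 and Klf6 promoters among them, and 3269 of all regions. Whether pairing or the unpartnered libraries made the shift was not tested.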
